A study of Danio rerio with 8 samples.

Results

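Heat shock factor target chaperones were examined in cells isolated as kdrl-positive from 28 hours post fertilization zebrafish, with 4 libraries of sf3b1 mutants and 4 of siblings. The splicing factor gene sf3b1 codes for a U2 snRNP protein that helps recognise intron branch points, and kdrl codes for a VEGF receptor of endothelium. Neither the mutant allele nor the siblings' genotype is stated in the labels, and the embryos or clutches pooled per library are not stated either. Any p-value here reflects the spread of these 8 samples, part of which may be technical. The genes were chosen by name, with earlier results of these data known, as 10 symbols of chaperones and co-chaperones known as heat shock factor targets. Of these, 8 symbols were found, on 9 Ensembl identifiers of 31901 in the count table, because HSPA8 stands on 2 identifiers. The symbols hsp90aa1.2 and hspa4a were on no identifier, while HSP90AA1 and HSPA4, in capitals after the human genes, were. These are described as related genes and not as members. All 9 member identifiers passed the filter on low counts, which left 18289 genes.

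Heat shock factors are transcription factors that bind heat shock elements in promoters when unfolded protein accumulates, and they switch on genes for molecular chaperones. The Hsp70 proteins bind exposed stretches of unfolded chains, J proteins such as those of the dnajb1 genes bring them substrates and stimulate their ATPase, and nucleotide exchange factors such as Bag3 and the Hsp110 proteins release the substrate. Hsp90 acts later on a set of client proteins such as kinases and receptors, and small heat shock proteins hold unfolded chains without using ATP. In zebrafish embryos hsp70l is a strongly heat-inducible gene, and hsp90aa1.1 is best known for its role in the folding of myosin in skeletal muscle.

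Most of the chaperone identifiers, but not the most abundant ones, passed as higher in the sf3b1 mutant cells. Of the 9 identifiers, 6 rose, none fell and 3 did not pass an adjusted p of 0.05 (edgeR's quasi-likelihood test, adjusted after Benjamini and Hochberg over all genes tested), while 9.92% of all genes tested rose. The 6 that rose were hspa1b, 1 of the HSPA8 identifiers, hsp90aa1.1, HSPB1, dnajb1a and BAG3. The 3 that did not pass, the other HSPA8 identifier, hsp70l and dnajb1b, were the most abundant of the 9 in both groups. All 9 had a log2 fold change of mutant over sibling above 0, as did 50% of all genes tested. The values lay between 0.21 and 4.20 with a median of 2.18, beside a median of -0.000397 over all genes tested. In 6 of the 9, every mutant library lay above every sibling library, which held for 12.6% of all genes tested. These shares only describe the list, since its members were chosen with earlier results of these data known. No identifier had a log2 fold change below 0, so 0 were lower at an unadjusted p of 0.05 as well as after adjustment. DESeq2 also called 0 lower. Of all 18289 genes tested, 2088 fell after adjustment in edgeR and DESeq2 called 2399 lower.

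Libraries held 10035886 to 13277963 counts. SF3B1 itself (ENSDARG00000056138) stood at 149.6 to 187.9 CPM in mutant cells and 211.5 to 353.9 CPM in sibling cells (log2 fold change -0.87 ± 0.166, adjusted p = 0.00168, edgeR), with CPM being counts scaled to normalised library sizes. kdrl was present in all libraries, at 689.8 to 1625 CPM in mutant cells and 627.6 to 1064 CPM in sibling cells (log2 fold change 0.50 ± 0.241, adjusted p = 0.167, edgeR), and it passed without mutant replicate 1 (0.68, adjusted p = 0.0377). The summed CPM of 15 pan-endothelial identifiers was 3221 to 6179 in mutants and 3038 to 5238 in siblings. Of these, clec14a (0.93 ± 0.20), flt1 (1.29 ± 0.292) and plvapb (0.81 ± 0.239) rose and sox18 fell (-1.14 ± 0.214). The call of plvapb was lost on leaving out mutant replicate 2, 3 or 4 or sibling replicate 1 or 2, each alone (0.63 to 0.82). Values below are CPM, means are given ± SD over 4 libraries, and log2 fold changes ± SE.

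Among the inducible Hsp70 genes, hspa1b (ENSDARG00000056210) rose and hsp70l (ENSDARG00000055723) did not pass. hspa1b stood at 80.97, 123.3, 31.55 and 82.77 CPM in mutant replicates 1 to 4, against 7.01, 4.198, 6.362 and 4.659 CPM in sibling replicates 1 to 4. Every mutant library lay above every sibling library, and the lowest of the mutants was replicate 3. The means were 79.65 ± 37.6 CPM in mutant cells and 5.557 ± 1.34 CPM in sibling cells, with a log2 fold change of 3.84 ± 0.364 (adjusted p = 8.59e-06, edgeR). In counts, the siblings gave 44 to 78 per library and the mutants 329 to 1543.

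hsp70l stood at 2513, 3723, 1676 and 2635 CPM in mutant replicates 1 to 4, against 1920, 1093, 1032 and 252.3 CPM in sibling replicates 1 to 4. Mutant replicate 3 lay below sibling replicate 1, so the groups overlapped, and the siblings spread over 7.61-fold from the lowest to the highest. The means were 2637 ± 840 CPM in mutant cells and 1074 ± 682 CPM in sibling cells, and the log2 fold change of 1.29 ± 0.552 did not pass (adjusted p = 0.151, edgeR). It passed with DESeq2 (1.30 ± 0.51, adjusted p = 0.0428), and with edgeR when sibling replicate 4 was left out (0.97 ± 0.274, adjusted p = 0.0314).

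**Figure D1:**
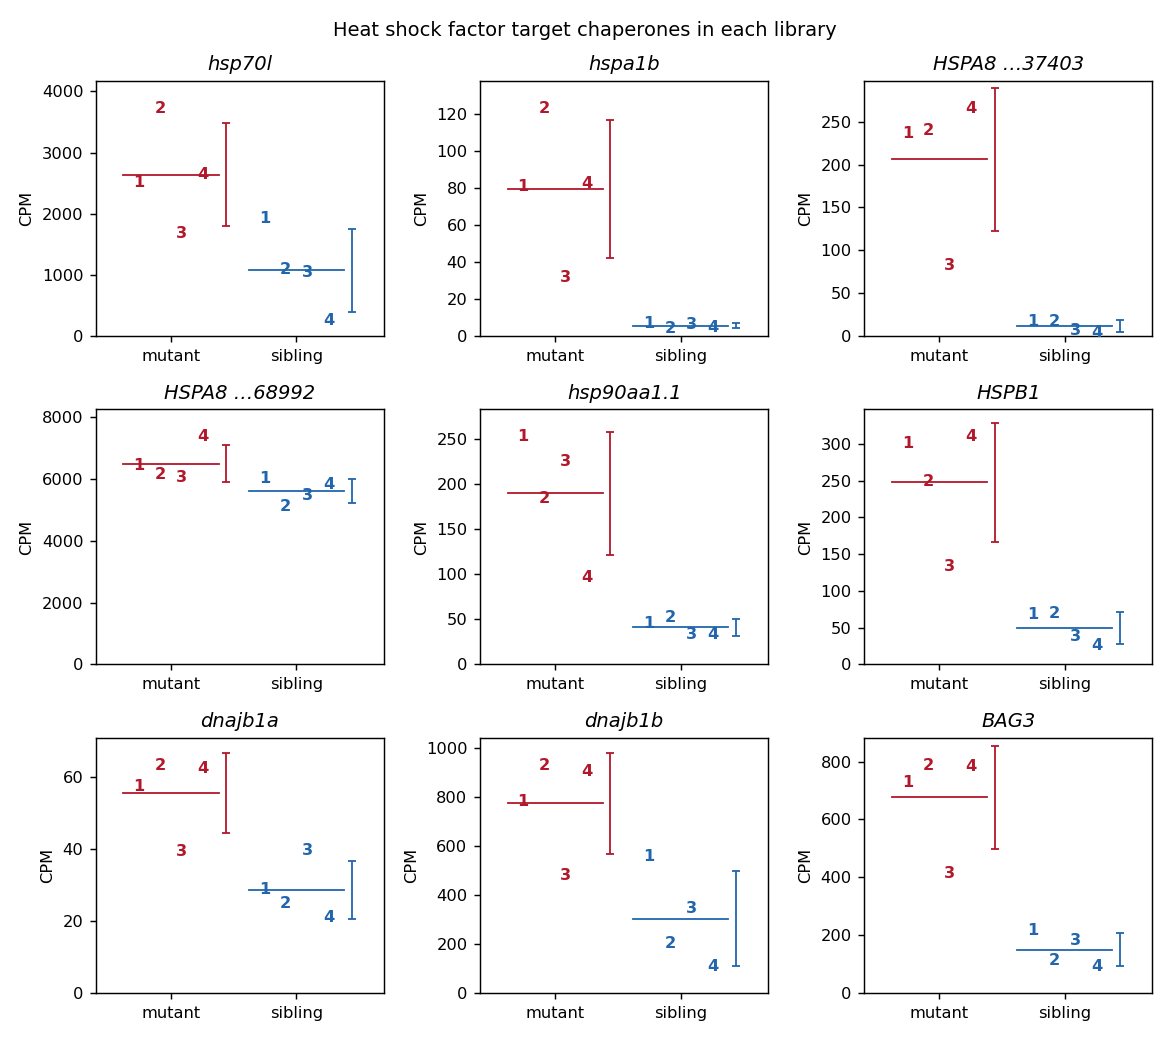
CPM of each member identifier in each library (y axis from 0), with mutants left of siblings. Digits are replicate numbers, horizontal lines are group means and bars are ± SD (n = 4 each). In hspa1b, ENSDARG00000037403 of HSPA8, hsp90aa1.1, HSPB1 and BAG3 all mutant libraries sit well above all sibling libraries, while hsp70l and dnajb1b spread widely among siblings.

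The symbol HSPA8 names the constitutive Hsc70 of the cytosol, and its 2 identifiers differed in what they showed. Whether ENSDARG00000037403 is a copy of that gene or another Hsp70 gene given its symbol could not be settled here. ENSDARG00000037403 rose most among the 9 identifiers, with 235.7, 239.8, 82.75 and 265.6 CPM in mutant replicates 1 to 4, against 16.92, 17.46, 6.362 and 4.338 CPM in sibling replicates 1 to 4. No mutant library came near a sibling library, and mutant replicate 3 was well below the other mutants. The means were 206.0 ± 83.2 CPM in mutant cells and 11.27 ± 6.89 CPM in sibling cells (log2 fold change 4.20 ± 0.55, adjusted p = 0.000639, edgeR).

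The other identifier, ENSDARG00000068992, holds nearly all HSPA8 counts. It stood at 6424, 6139, 6046 and 7365 CPM in mutant replicates 1 to 4, against 6016, 5118, 5474 and 5838 CPM in sibling replicates 1 to 4. The lowest mutant library lay just above the highest sibling library. With means of 6493 ± 603 CPM in mutant cells and 5611 ± 399 CPM in sibling cells, the log2 fold change of 0.21 ± 0.113 did not pass (adjusted p = 0.219, edgeR). Summing both identifiers, a step chosen after the data were seen, gave 0.25 ± 0.114 (adjusted p = 0.136, edgeR).

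The share of the smaller identifier puts the same counts another way. ENSDARG00000037403 held 3.54%, 3.76%, 1.35% and 3.48% of the counts of both identifiers in mutant replicates 1 to 4, against 0.281%, 0.34%, 0.116% and 0.0743% in sibling replicates 1 to 4. The mean shares were 3.03% ± 1.13 in mutants and 0.203% ± 0.128 in siblings (exact two-sided permutation test, p = 0.0286, the smallest p that 4 against 4 allows, and 0.0857 after Benjamini-Hochberg adjustment over 3 such shares). The groups did not overlap, but the adjusted p did not pass. With p already the smallest possible, it could have passed only if another of the 3 shares had separated as fully. Reads of near-identical Hsp70 copies may be split among identifiers by the counting, which makes the level of each single copy uncertain. By symbol, the RefSeq gene table of another assembly places 4 snoRNA genes inside hspa8, and the files do not say how reads of such RNAs were counted in these libraries of total RNA.

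Of the cytosolic Hsp90 genes, hsp90aa1.1 (ENSDARG00000010478) rose. It stood at 252.5, 184.5, 225.2 and 96.41 CPM in mutant replicates 1 to 4, against 45.67, 52.57, 33.77 and 33.02 CPM in sibling replicates 1 to 4. All mutant libraries were higher than all sibling libraries, and here replicate 4 and not replicate 3 was the lowest mutant. It differed by a log2 fold change of 2.2 ± 0.266 (adjusted p = 5.71e-05, edgeR), with means of 189.7 ± 68.2 CPM in mutant cells and 41.26 ± 9.51 CPM in sibling cells.

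Its relative HSP90AA1 (ENSDARG00000024746) did not differ beyond the spread between libraries. That identifier stood at 4707, 3568, 2069 and 4633 CPM in mutant replicates 1 to 4, against 4409, 5871, 2158 and 1250 CPM in sibling replicates 1 to 4. The highest and the lowest library were both siblings. The log2 fold change of 0.13 ± 0.492 did not pass (adjusted p = 0.897, edgeR) and turned negative without sibling replicate 3 or sibling replicate 4. In the RefSeq table hsp90aa1.2 and hsp90aa1.1 are next to each other, and the files do not tell whether HSP90AA1 is the identifier of hsp90aa1.2. hsp90aa1.1 made up 5.09%, 4.92%, 9.82% and 2.04% of the counts of both identifiers in mutant replicates 1 to 4, against 1.03%, 0.888%, 1.54% and 2.57% in sibling replicates 1 to 4. Mutant replicate 4 lay below sibling replicate 4, and the difference between means of 5.47% ± 3.22 in mutants and 1.51% ± 0.764 in siblings did not pass (n = 4 each, exact two-sided permutation test, p = 0.0571, adjusted 0.0857). With the counts of both summed, a step chosen after the data were seen, the difference was 0.18 ± 0.473 on the log2 scale (adjusted p = 0.843, edgeR).

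HSP90AB1 (ENSDARG00000029150), the constitutive cytosolic Hsp90, stood at 5248 ± 709 CPM in mutant cells and 5179 ± 553 CPM in sibling cells (log2 fold change 0.02 ± 0.129, adjusted p = 0.942, edgeR), and its sign turned when single libraries were left out. HSP90B1 (ENSDARG00000003570), the Hsp90 of the endoplasmic reticulum, fell to 716.2 ± 90.2 CPM in mutants, against 1427 ± 309 CPM in sibling cells (log2 fold change -0.99 ± 0.159, adjusted p = 0.000454, edgeR).

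The small heat shock protein gene HSPB1 (ENSDARG00000041065), whose product is the fish counterpart of human HSP27, rose. It stood at 300.4, 248.4, 133.6 and 309.7 CPM in mutant replicates 1 to 4, against 67.6, 68.79, 37.68 and 25.87 CPM in sibling replicates 1 to 4. The groups did not overlap, and mutant replicate 3 was again the lowest mutant. It differed by a log2 fold change of 2.31 ± 0.332 (adjusted p = 0.000347, edgeR). Of 11 identifiers of other small heat shock protein and alpha-crystallin genes, 4 had enough counts to be tested, and 1 rose. This was HSPB8 (ENSDARG00000058365), whose product binds Bag3, at 128.2 ± 21.9 CPM in mutant cells and 50.78 ± 13.3 CPM in sibling cells (log2 fold change 1.34 ± 0.203, adjusted p = 0.000299, edgeR).

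The J proteins of the dnajb1 genes are partners of Hsp70. dnajb1a (ENSDARG00000099383) stood at 57.13, 63.15, 39.12 and 62.22 CPM in mutant replicates 1 to 4, against 28.74, 24.71, 39.56 and 20.81 CPM in sibling replicates 1 to 4. Mutant replicate 3 and sibling replicate 3 lay at almost the same level, and the other mutants were above all siblings. The gene passed with a log2 fold change of 0.96 ± 0.235 (adjusted p = 0.00882, edgeR).

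dnajb1b (ENSDARG00000041394) stood at 781.2, 928.4, 478.4 and 903.9 CPM in mutant replicates 1 to 4, against 554.5, 201.7, 344.0 and 108.3 CPM in sibling replicates 1 to 4. Sibling replicate 1 lay above mutant replicate 3, and the siblings spread over 5.12-fold. The log2 fold change of 1.35 ± 0.463 was larger than that of dnajb1a but did not pass (adjusted p = 0.0727, edgeR). It passed with DESeq2 (1.36 ± 0.501, adjusted p = 0.0282), and with edgeR without sibling replicate 1 (1.82, adjusted p = 0.00632) or without sibling replicate 4 (1.07, adjusted p = 0.0401). dnajb1a made up 6.80% ± 0.545 of the counts of both genes in mutants and 10.6% ± 4.57 in siblings, a difference that did not pass (n = 4 each, exact two-sided permutation test, p = 0.143, adjusted 0.143).

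BAG3 (ENSDARG00000039486), a co-chaperone that links Hsp70 to small heat shock proteins and to selective autophagy, rose. It stood at 725.8, 787.0, 413.4 and 782.2 CPM in mutant replicates 1 to 4, against 215.3, 112.6, 179.8 and 91.26 CPM in sibling replicates 1 to 4. The lowest mutant library was well above the highest sibling library. The means were 677.1 ± 178 CPM in mutant cells and 149.7 ± 57.7 CPM in sibling cells (log2 fold change 2.18 ± 0.278, adjusted p = 0.000136, edgeR).

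**Figure D2:**
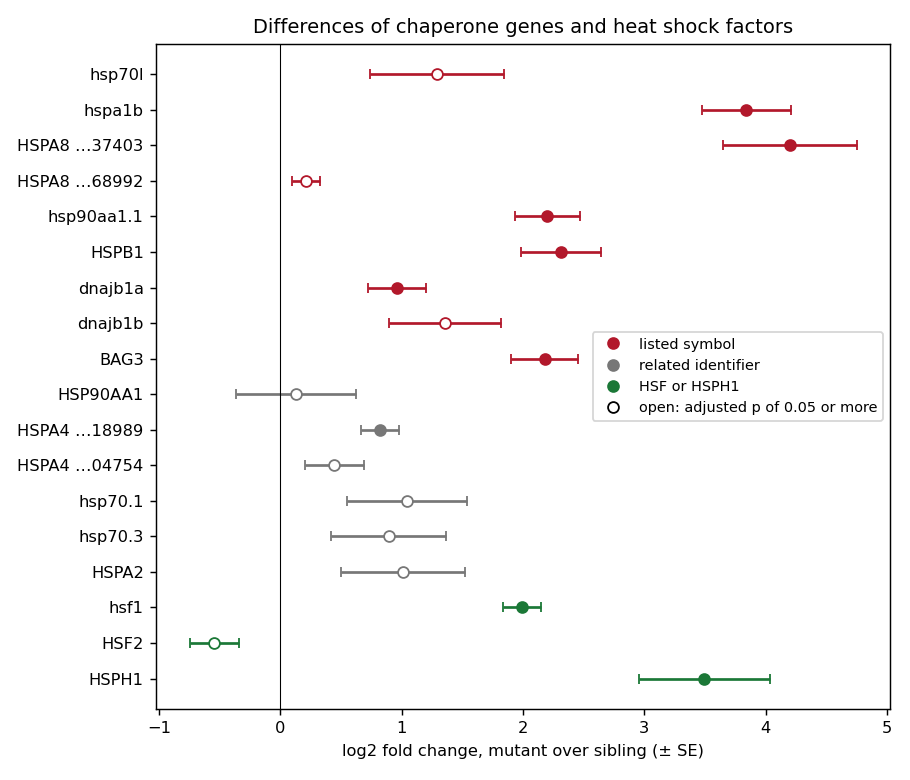
Log2 fold change of mutant over sibling (x axis) with its SE for the 9 member identifiers, 6 related identifiers, both tested heat shock factor genes and the Hsp110 gene HSPH1, 4 libraries a group. Filled points have an adjusted p under 0.05. HSPA8 ENSDARG00000037403 (4.20), hspa1b (3.84) and HSPH1 (3.49) lie farthest to the right, and HSF2 (-0.54, open) lies left of 0.

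Related Hsp70 identifiers were taken by symbol as well. hsp70.1 (ENSDARG00000029688) and hsp70.3 (ENSDARG00000021924), inducible genes on either side of hsp70.2 in the RefSeq table, did not pass. No identifier carried the symbol hsp70.2. hsp70.3 stood at 1109, 1244, 709.6 and 1265 CPM in mutant replicates 1 to 4, against 979.5, 663.6, 527.7 and 160.6 CPM in sibling replicates 1 to 4 (log2 fold change 0.89 ± 0.471, adjusted p = 0.239, edgeR). Its groups overlapped through sibling replicate 1 and mutant replicate 3, as did those of hsp70l. hsp70.1 stood at 203.5 ± 42.5 CPM in mutant cells and 98.89 ± 62.7 CPM in sibling cells (1.04 ± 0.495, adjusted p = 0.187, edgeR). HSPA2 (ENSDARG00000092362) stood at 503.9 ± 145 CPM in mutant cells and 250.1 ± 163 CPM in sibling cells (1.01 ± 0.513, adjusted p = 0.221, edgeR). Summing hsp70l, hspa1b, hsp70.1 and hsp70.3, a step chosen after the data were seen, gave 4001 ± 1139 CPM in mutant cells and 1762 ± 1082 CPM in sibling cells (1.18 ± 0.526, adjusted p = 0.168, edgeR), so the sum, of which hspa1b is a small part, did not pass.

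HSPA4 names Hsp110 proteins, which act as nucleotide exchange factors of Hsp70, and it stands on 2 identifiers, either of which may be hspa4a. ENSDARG00000018989 rose, with 324.7, 313.9, 306.2 and 248.1 CPM in mutant replicates 1 to 4, against 154.8, 211.5, 143.3 and 164.1 CPM in sibling replicates 1 to 4 (log2 fold change 0.82 ± 0.156, adjusted p = 0.00157, edgeR). The groups did not overlap. ENSDARG00000004754 stood at 894.4 ± 149 CPM in mutant cells and 657.5 ± 268 CPM in sibling cells and did not pass (0.44 ± 0.245, adjusted p = 0.237, edgeR), except without sibling replicate 2 (0.68, adjusted p = 0.0422).

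The lowest library of a group was mostly the same across the members, while the highest varied. Mutant replicate 3, the library with the fewest counts, was the lowest mutant for 8 of 9 identifiers, and the exception was hsp90aa1.1. Sibling replicate 4, with the most counts of the siblings (12237885), was the lowest sibling for 7 of 9 identifiers. Sibling replicate 1, with the fewest (10307076), was the highest for 5. Sibling replicate 2 was the highest for 3 and the lowest for 2. The highest mutant was replicate 2 for 5, replicate 4 for 3 and replicate 1 for 1. The ratio of the highest to the lowest sibling ran from 1.18 for HSPA8 ENSDARG00000068992, 1.59 for hsp90aa1.1 and 1.67 for hspa1b to 7.61 for hsp70l. Among mutants it ran from 1.22 for HSPA8 ENSDARG00000068992 to 3.91 for hspa1b. Without the HSPA8 identifiers, the summed CPM of the members was 4711, 6058, 2997 and 4872 in mutant replicates 1 to 4, against 2839, 1558, 1673 and 536.2 in sibling replicates 1 to 4. Mutant replicate 3 thus stood only a little above sibling replicate 1. On leaving out each library in turn, 6 to 8 of the 9 identifiers rose and 0 fell, and the 6 calls made with all libraries were kept in each case. Of the 18863 to 19106 genes tested in these fits, 1305 to 1804 rose and 1616 to 2093 fell.

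**Figure D3:**
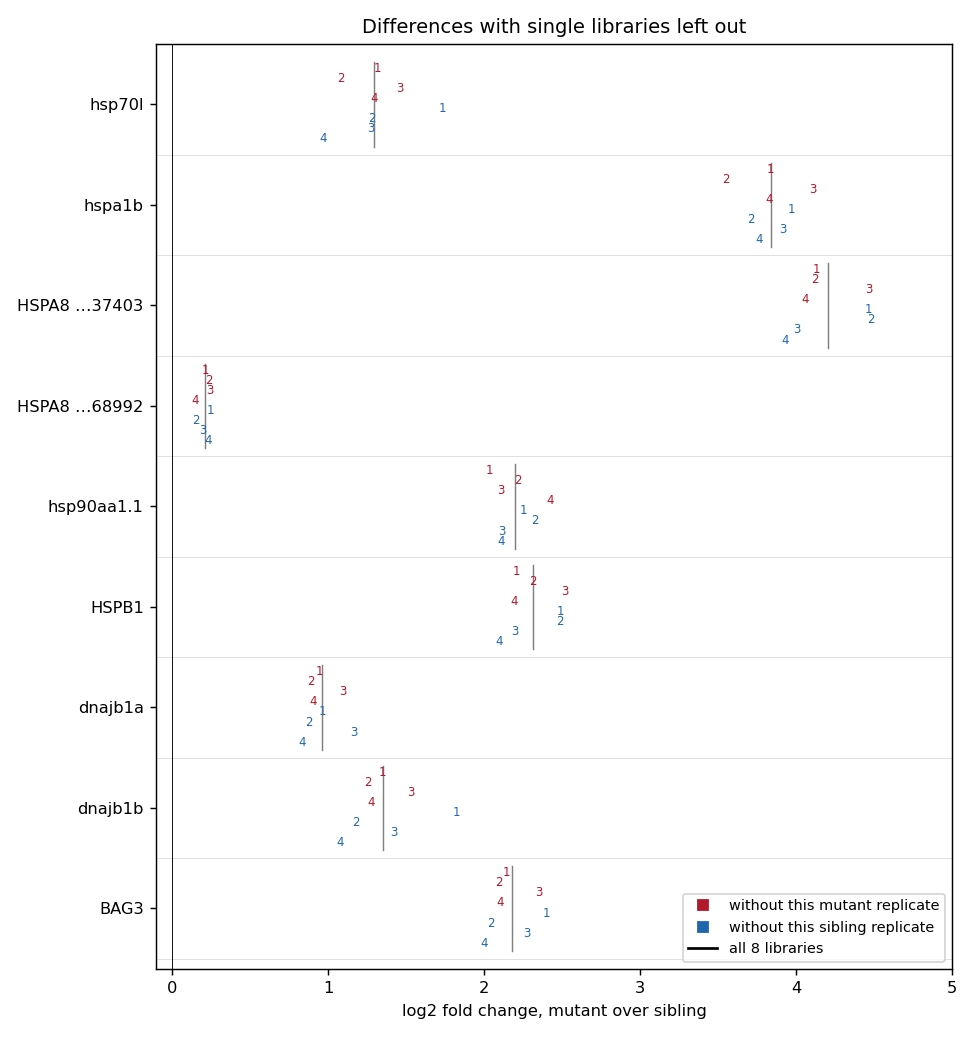
Log2 fold change of mutant over sibling (x axis) of each member identifier when 1 library is left out. Digits are the replicate left out (red for mutant, blue for sibling) and vertical lines are the values with all 8 libraries. Leaving out sibling replicate 4 moved hsp70l to 0.97 and dnajb1b to 1.07, and leaving out sibling replicate 1 moved them to 1.73 and 1.82.

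The transcript of the main heat shock factor was higher in the mutants. hsf1 (ENSDARG00000008818) stood at 221.6, 194.2, 182.8 and 192.0 CPM in mutant replicates 1 to 4, against 51.48, 57.73, 40.7 and 48.76 CPM in sibling replicates 1 to 4. The groups were far apart and each was narrow, and mutant replicate 3 was lowest by a small margin. This is a log2 fold change of 1.99 ± 0.156 (adjusted p = 1.46e-06, edgeR), and 1.91 to 2.06 on leaving out single libraries. HSF2 (ENSDARG00000053097) stood at 28.13 ± 3.29 CPM in mutant cells and 40.98 ± 7.01 CPM in sibling cells (-0.54 ± 0.203, adjusted p = 0.0728, edgeR), without overlap. HSBP1 (ENSDARG00000069425), named for a protein that binds heat shock factors, fell (adjusted p = 0.00987, edgeR), with 5 counts in mutant replicate 2 and 0 in the other mutants, against 28 to 70 counts in siblings. The similarly named hsbp1b (ENSDARG00000041921) did not pass (34.5 CPM in mutant cells and 28.47 CPM in sibling cells). The level of a factor's transcript does not measure its activity, which is known to depend on trimer formation and on chaperones bound to it.

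Other genes of the chaperone network were counted in lists chosen with earlier results of these data known. Of 13 identifiers of other Hsp70 and Hsp110 genes, 5 rose and 1 fell, with a median log2 fold change of 0.89. HSPH1 (ENSDARG00000019874), an Hsp110 gene, stood at 707.7, 744.3, 393.6 and 724.9 CPM in mutant replicates 1 to 4, against 89.13, 86.64, 35.64 and 16.95 CPM in sibling replicates 1 to 4 (3.49 ± 0.538, adjusted p = 0.00224, edgeR). It too was lowest in mutant replicate 3 and sibling replicate 4. HSPA9, the mitochondrial Hsp70, rose by 1.44 ± 0.163 and HSPA14, of the ribosome-associated complex, by 1.15 ± 0.173. The single faller was HYOU1 (-0.59 ± 0.202, adjusted p = 0.0489, edgeR). The call of this gene of the endoplasmic reticulum was lost on leaving out any single library except sibling replicate 3 (-0.67 to -0.39). HSPA5, the Hsp70 of that compartment, did not pass (-0.37 ± 0.137, adjusted p = 0.0719, edgeR) except without mutant replicate 4 (-0.45). Of the 3 other Hsp90 genes, 1 fell, the HSP90B1 named above.

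Of 22 identifiers of Hsp90 co-chaperones, 10 rose and 0 fell, with a median log2 fold change of 0.65. At an unadjusted p under 0.05 in edgeR 15 were higher and 0 lower, but the share of all genes at that threshold was not counted. DESeq2 called 11 higher and 0 lower, beside 2299 higher and 2399 lower of all 18289 genes tested. The peptidyl-prolyl isomerase gene FKBP4 rose by 1.31 ± 0.189, the Hsp90 ATPase activator gene AHSA1 by 2.09 ± 0.316 (ENSDARG00000028664) and the p23 gene PTGES3 by 1.15 ± 0.247 (ENSDARG00000037284). The other identifiers of AHSA1 (ENSDARG00000100317, 1.28 ± 0.289) and PTGES3 (ENSDARG00000089626, 0.70 ± 0.181) rose less. These were more abundant, at 373.1 and 328.2 CPM in mutant cells against 41.08 and 87.37 CPM. ptges3l stood at 37.67 ± 6.39 CPM in mutant cells and 2.363 ± 2.09 CPM in sibling cells (4 ± 0.639). Of 38 tested identifiers of other J proteins, 13 rose and 2 fell, with a median of 0.17. DNAJC10 (1.72 ± 0.197), of the endoplasmic reticulum, DNAJC21 (1.91 ± 0.249), of ribosome assembly, DNAJC11 (ENSDARG00000011196, 1.08 ± 0.174), of mitochondria, and DNAJC25 (1.78 ± 0.243) had the smallest p-values. Those that fell were DNAJB9 (ENSDARG00000052072, -2.23 ± 0.675), of the endoplasmic reticulum, and dnajc5gb (-1.39 ± 0.418). The call of DNAJB9 was lost when mutant replicate 3 (-2.05) or a sibling library, replicate 1 or replicate 2 (-2.07 and -2.09), was left out. This identifier had only 2 to 60 counts per mutant library. The other DNAJB9 identifier, ENSDARG00000016886, did not pass (0.43 ± 0.983, adjusted p = 0.817, edgeR). Nor did the other DNAJC11 identifier, ENSDARG00000102696 (0.07 ± 1.27, adjusted p = 0.979, edgeR), which had low counts. The call of dnajc5gb was lost on leaving out replicate 1 or 2 of the mutants or replicate 3 or 4 of the siblings (-1.41 to -1.24).

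Of 10 identifiers of other BAG genes and nucleotide exchange factors, 1 rose and 2 fell, with a median of 0.19. HSPBP1, an exchange factor of cytosolic Hsp70, rose by 1.31 ± 0.278, while SIL1, the exchange factor of the endoplasmic reticulum, and bag6 fell, with -1.13 ± 0.222 and -0.59 ± 0.136. Of 12 identifiers of mitochondrial chaperonins and other genes listed here as heat shock factor 1 targets, 5 rose and 2 fell, with a median of 0.59. Whether each gene of this list, such as rpz5, is such a target was not tested. HSPD1 (Hsp60) rose by 1.56 ± 0.195 and its partner HSPE1 (Hsp10) by 1.75 ± 0.261. The polyubiquitin gene UBB (ENSDARG00000002369) rose by 1.15 ± 0.156 and rpz5 by 3.40 ± 0.316. Another polyubiquitin gene, ubc (ENSDARG00000102632), fell to 472.6 ± 89.8 CPM in mutant cells, against 804.9 ± 98 CPM in sibling cells (-0.77 ± 0.152, adjusted p = 0.00217, edgeR), and IER5L fell by 0.79 ± 0.175 on the log2 scale. The edgeR counts after adjustment stand beside 9.92% of all genes tested that rose and 11.4% that fell. With DESeq2, 2299 of the 18289 genes tested were higher and 2399 lower. No share of all genes was counted at an unadjusted p.

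**Figure D4:**
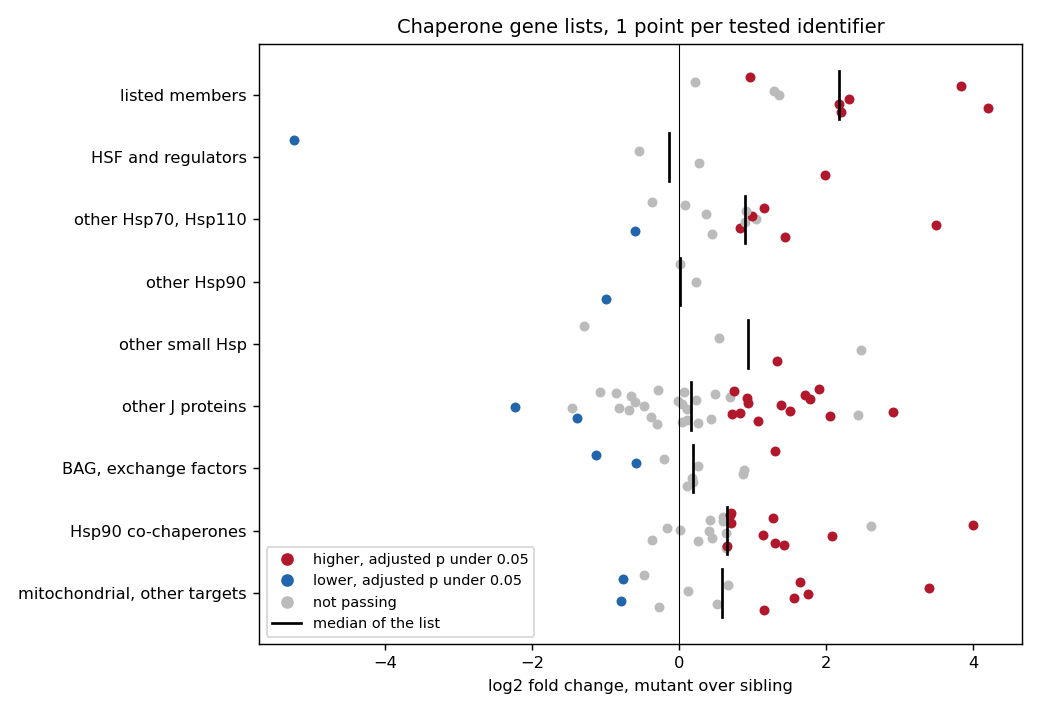
Log2 fold change of mutant over sibling (x axis) of each tested identifier, by list, with colour for those with an adjusted p under 0.05 and a black line at the median of the list. The members have a median of 2.18, other Hsp70 and Hsp110 genes 0.89 and Hsp90 co-chaperones 0.65; the leftmost point is HSBP1, whose fitted value rests on 5 counts in the mutants.

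Markers of other cells were set beside these results, since chaperones are also abundant in other tissues, and in such bulk libraries fewer cells of a type and less RNA per cell cannot be told apart. Of 16 tested muscle identifiers, 0 rose and 0 fell, with a summed level of 159.4 to 774.7 CPM in mutant cells and 365.0 to 560.9 CPM in sibling cells. Mutant replicate 4 was the lowest mutant for muscle genes (159.4 CPM) and for hsp90aa1.1 (96.41 CPM). Sibling replicate 4 was the highest sibling for muscle genes (560.9 CPM) and the lowest for hsp90aa1.1 (33.02 CPM). Sibling replicate 2 was the lowest sibling for muscle genes (365.0 CPM) and the highest for hsp90aa1.1 (52.57 CPM). At an unadjusted p under 0.05 in edgeR 1 of the muscle identifiers was higher and 1 lower, and DESeq2 called 0 higher and 1 lower. Lens genes summed to 0.575 to 6.72 CPM in mutant cells and 0.286 to 14.5 CPM in sibling cells, with CRYAA at 0 in every library. Leukocyte genes fell in 9 of 11 tested identifiers, with sums of 132.7 to 283.8 CPM in mutant cells and 724.3 to 841.3 CPM in sibling cells. Erythroid genes fell in 5 of 6, with sums of 3467 to 4759 CPM in mutant cells and 7397 to 13340 CPM in sibling cells. Neural genes fell in 6 of 11 and rose in 1 (ISL1), with sums of 346.1 to 398.4 CPM in mutant cells and 904.9 to 1405 CPM in sibling cells. Immediate early genes, which tissue dissociation can induce along with heat shock genes, rose in 1 (FOSB) and fell in 1 (klf2a) of 23, with calls that leaving out single libraries ended. That of FOSB was lost on leaving out replicate 2 or 3 of the mutants or replicate 2 or 4 of the siblings (0.54 to 0.67), and that of klf2a on leaving out replicate 1, 2 or 3 of either group (-0.90 to -0.64). At an unadjusted p under 0.05 in edgeR 3 of the 23 were higher and 4 lower, and DESeq2 called 3 higher and 2 lower. The list had sums of 4170 to 5208 CPM in mutant cells and 3383 to 6427 CPM in sibling cells. For all these lists, the edgeR counts after adjustment stand beside 9.92% of all genes tested that rose and 11.4% that fell. The DESeq2 counts stand beside 2299 higher and 2399 lower of 18289 genes tested. At an unadjusted p, no share of all genes was counted. Immediate early sums were 4411, 5208, 4170 and 4785 CPM in mutant replicates 1 to 4. In sibling replicates 1 to 4 they were 5614, 3400, 6427 and 3383 CPM. From highest to lowest, the mutant replicates ranked 2, 4, 1 and 3, as in the summed members without HSPA8. Sibling replicate 4 was the lowest sibling of both sums, next to sibling replicate 2. The highest sibling was replicate 3 for immediate early genes and replicate 1 for those members. The part of any of these in the chaperone results was not tested.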

How the data were processed

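Per the labels' protocols, RNA came from a microprep column kit, RiboGone removed ribosomal RNA and the SMARTer Stranded kit was used for the libraries. Trim Galore, Picard, Cufflinks 2.2.1 and STAR 2.4.2a, with the build GRCz10, are listed in the submitters' processing notes. How reads were counted, with which strand setting and on which annotation, is not stated in these sources. The authors deposited raw counts for each Ensembl gene, with no normalization visible in the values. Libraries held 10035886 to 13277963 counts. Of these, 1 gene, ENSDARG00000080337, took 13.3% to 16.2% in mutants and 9.71% to 12.3% in siblings, without overlap.

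Symbols came from a table of Ensembl names, found for 29178 of 31901 genes. Mutants and siblings were compared with edgeR 4.0.16 in R 4.3.3 (TMM, filterByExpr with a smallest count of 10 and a smallest total of 15, glmQLFit with robust=TRUE, glmQLFTest, group as the only factor), with Benjamini-Hochberg adjustment over 18289 genes. Adjusted p under 0.05 counted as passing, and every adjusted p of a gene comes from this test unless DESeq2 1.42.0 is named. The SE is the size of the log2 fold change divided by the square root of F. Text names every member identifier, up to 4 passing genes with the smallest p from each pathway list, and hsf1, HSF2, HSP90AB1, HSPD1, HSPE1 and HSPA4. HSP90AA1, hsp70.1, hsp70.3 and HSPA2 were added by symbol, and HYOU1, HSPA5, hsbp1b, ubc, IER5L, DNAJB9, dnajc5gb, ISL1, FOSB, klf2a and the passing endothelial genes after their values were seen. So were the other identifiers of AHSA1, PTGES3 and DNAJC11. The members and lists were chosen with earlier results of these data known. Pairs of same-group libraries differed beyond sampling noise (chi-square per degree of freedom 13.99 to 47.24), so each counted as 1 sample. Alternatives were RLE, total-count and upper-quartile scaling, other filters, DESeq2, a replicate block and leaving out libraries.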

Additional observations from a re-analysis of the deposited data

Results flagged for a closer look

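In 11 of 110 groups of 4 libraries examined, 1 library stood far from the other 3. Chance gives about 1 in 20 for independent groups. These groups are genes measured in the same libraries, so their number cannot be judged against that rate. Mutant replicate 3 did so for 5 genes, as the lowest mutant for 4 chaperone genes and as the highest for ubc. HSPA8 (ENSDARG00000037403) was at 82.75 CPM there, against 235.7 to 265.6 CPM in the other mutants. BAG3 was at 413.4 CPM, against 725.8 to 787.0 CPM. HSPH1 was at 393.6 CPM, against 707.7 to 744.3 CPM, and DNAJC21 was at 60.41 CPM, against 88.71 to 93.12 CPM. HSBP1 was at 0.3997 CPM in mutant replicate 2 and at 0 in the other mutants, a flag that any count there would have given. SIL1 was at 64.79 CPM in sibling replicate 2, against 39.23 to 43.36 CPM in the other siblings. ubc was at 605.6 CPM in mutant replicate 3, against 408.9 to 441.9 CPM in the other mutants. clec14a was at 126.4 CPM in mutant replicate 1, against 162.9 to 167.9 CPM in the other mutants, and at 49.43 CPM in sibling replicate 2, against 89.43 to 95.27 CPM in the other siblings. sox18 was at 121.4 CPM in mutant replicate 4, against 67.69 to 75.78 CPM in the other mutants, and at 255.4 CPM in sibling replicate 3, against 159.0 to 164.7 CPM in the other siblings.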

How the results depend on the processing

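For the 9 member identifiers, 139 of 144 values under the alternatives set at the start kept their direction and their side of the threshold, and the other 5 newly passed: hsp70l and dnajb1b with DESeq2 and without sibling replicate 4, and dnajb1b without sibling replicate 1. On leaving out single libraries, 6 to 8 members rose and 0 fell, and of all genes 1305 to 1804 rose and 1616 to 2093 fell. Without both mutant replicate 4 and sibling replicate 2, 6 members rose and 0 fell, while 1899 of 18754 genes tested rose and 2155 fell. HSP90AB1 ran from -0.045 to 0.10 and HSP90AA1 from -0.15 to 0.50 on leaving out single libraries, which turned their sign; the cause was not tested. Summing counts with paralogues, chosen after the data were seen, ended the calls of hspa1b (1.18), HSPA8 ENSDARG00000037403 (0.25) and hsp90aa1.1 (0.18), since abundant copies dominate the sums. Over all genes tested, the deviations of same-numbered libraries were hardly correlated (-0.04 to 0.05). Some genes could still share an order, as kdrl rose from replicate 1 to 4 in both groups. It stood at 689.8, 992, 1240 and 1625 CPM in mutants and at 627.6, 629.9, 883.8 and 1064 CPM in siblings. The pan-endothelial sum was 3221, 4297, 5443 and 6179 CPM in mutant replicates 1 to 4. In sibling replicates 1 to 4 that sum was 3243, 3038, 4618 and 5238 CPM. Sibling replicate 4, lowest for most chaperones, thus had the highest endothelial sum of the siblings. In contrast, mutant replicate 4, with the highest endothelial sum of the mutants, was the highest mutant for 3 of 9 member identifiers and the lowest for 1. The part of this in the chaperone results was not tested. With the replicate block 6 members rose, and 1746 of all genes rose and 2036 fell. Upper-quartile scaling gave 2062 higher and 1806 lower genes, where the unaltered fit gave 1814 and 2088. HYOU1 also lost its call with RLE scaling (-0.59), upper-quartile scaling (-0.53), the filter of 1 CPM in 4 libraries (-0.59) and without both mutant replicate 4 and sibling replicate 2 (-0.42), while HSPA5 (-0.37) and kdrl (0.47, adjusted p = 0.0172) passed with the replicate block. klf2a lost its call with RLE (-0.82), total-count (-0.83) and upper-quartile scaling (-0.77), dnajc5gb without a filter (-1.39) and with the block (-1.40), and FOSB (0.65) and plvapb (0.54) without both libraries named; the cause was not tested. Low counts limit HSBP1 and most small heat shock protein genes.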
